A study of Mus musculus with 8 samples.

Results

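Oxidative phosphorylation is the process by which mitochondria pass electrons from nutrients to oxygen along respiratory complexes I to IV and use the proton gradient so formed to make ATP at complex V, the ATP synthase. Most subunits of these complexes are encoded in the nucleus and imported, and the remainder are encoded in mitochondrial DNA, whose genes are read into long transcripts that are cut into separate mRNAs. Complex II is built from nuclear genes only. In the peripheral nerve, myelinating Schwann cells need ATP and carbon skeletons for membrane lipid synthesis, and axons depend on mitochondria along their length.

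The genes described here are those of the 53090 listed genes whose symbols begin with Nduf, Uqcr, Cox4 to Cox8, Atp5, mt-Nd, mt-Co, mt-Atp or mt-Cytb, or are Sdha, Sdhb, Sdhc or Sdhd, with pseudogene symbols holding -ps left out. The rule gave 108 rows, and 106 genes once 2 symbols, Uqcrc1 and Ndufs3, each listed in 2 rows with identical values in every nerve, were counted once. Of the 106, 93 are nuclear and 13 are mitochondrial, which is the full set of mitochondrial mRNAs. A filter on low counts left 100 of them, 87 nuclear and 13 mitochondrial. The rule also takes in 8 complex I assembly factors (Ndufaf1 to Ndufaf8), tissue isoforms of complex IV and 3 genes that are named after a complex but are not classical subunits of it (Cox7a2l, Atp5s and Atp5sl).

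Expression was measured by RNA sequencing of whole sciatic nerves from 7-day-old mice, 4 Nae1 cKO and 4 labelled WT. Nae1 encodes the regulatory subunit of the enzyme that activates NEDD8 for attachment to proteins (neddylation). The Nae1 cKO mice carried a floxed Nae1 allele on both chromosomes (f/f) together with a Cre transgene, so that deletion is directed to Schwann cells and other cells of the nerve keep the gene. WT mice were littermates without Cre that carried 1 or 2 floxed alleles. RNA came from every cell of the nerve, so fewer cells of a type and less RNA per cell cannot be told apart. The labels do not say that each library is a separate mouse, and p values then measure the spread between these libraries.

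Each nerve gave 12962798 to 14766770 expected counts (RSEM's estimate of fragments per gene). Levels are given as CPM, counts scaled to library size with TMM factors (which set the bulk of genes level between nerves). Single genes are compared with each other only in TPM, which is scaled by length. Differences and ratios of mitochondrial to nuclear genes as sets are in CPM, without scaling by length, and serve only to compare nerves. Changes are log2 fold changes of Nae1 cKO over WT from edgeR's quasi-likelihood test, with Benjamini-Hochberg adjustment over the 17090 genes tested, and a gene was called at an adjusted p under 0.05. Nae1 itself was at 82.9 ± 5.07 CPM in WT and 51.8 ± 6.56 CPM in Nae1 cKO nerves (SD, n = 4), with every Nae1 cKO nerve below every WT nerve (log2 fold change −0.68, adjusted p = 2.8e-04). The nerves are named by a letter and a number: K1, L3, L4 and L9 are WT, and K2, L1, L5 and L8 are Nae1 cKO. The letter is only part of the name, K holds 1 nerve of each genotype, and calls lost within the L nerves alone are named. The summed level of 13 skeletal muscle genes was 1365 CPM in K1 and 2188 CPM in L4, against 66.1 to 379 CPM in the other nerves, with none of the 13 at 0 in all nerves. Nae1 cKO nerve K2 had 0.453% of its counts in mitochondrial ribosomal RNA, against 1.82% to 1.94% in the others of its group. K2 also had 4.70% of its counts in 7SK RNA, against 1.94% to 2.66% in all other nerves. It thus stood apart in more than the genes described here. Of the muscle genes 0 were higher and 5 lower in Nae1 cKO nerves, while 6 of 8 macrophage and 4 of 5 fibroblast markers were higher and 3 of 5 endothelial markers were lower. Of 7 Schwann cell markers 1 was higher and 3 were lower, and they summed to 13738 to 23150 CPM in WT and 5836 to 6785 CPM in Nae1 cKO nerves. How far these differences enter the values below was not tested.

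Few genes of the respiratory complexes passed the test between genotypes. Of the 100 genes tested, 4 were higher in Nae1 cKO nerves (Uqcrh, Cox7a2l, Atp5h and Atp5o) and 2 were lower (Ndufv2 and mt-Cytb), whereas 14.1% of all genes tested were higher and 12.3% were lower. None of the 100 was called with a change over 2-fold, against 4.25% of all genes higher and 2.49% lower past that limit. At an unadjusted p under 0.05 there were 8 higher and 5 lower, and the share of all genes at that limit is not given here. DESeq2 called 4 higher and 3 lower, against 14.4% and 13.5% of all genes. The limma-voom fit called 4 and 2, against 13.9% and 12.2%. Every Nae1 cKO nerve lay above every WT nerve in 9 of the 100 genes and below it in 6, against 14.9% and 13.7% of all genes.

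The 87 nuclear genes had a median log2 fold change of −0.01, with quartiles at −0.10 and 0.09. Over all genes tested the median was 0.01 and the quartiles were −0.24 and 0.27. In 70 of the 87 (80.5%) the 95% interval of the log2 fold change lay within 0.5 of 0, so that a change of that size was outside the interval, against 35.9% of all genes. These genes are also well counted. Among genes with a mean level of 10 to 600 CPM, limits set after seeing the data, 68 of 77 nuclear members (88.3%) had such an interval against 56.6% of all genes in that range, and 5 of the 77 (6.49%) were called against 31.7%.

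**Figure D1:**
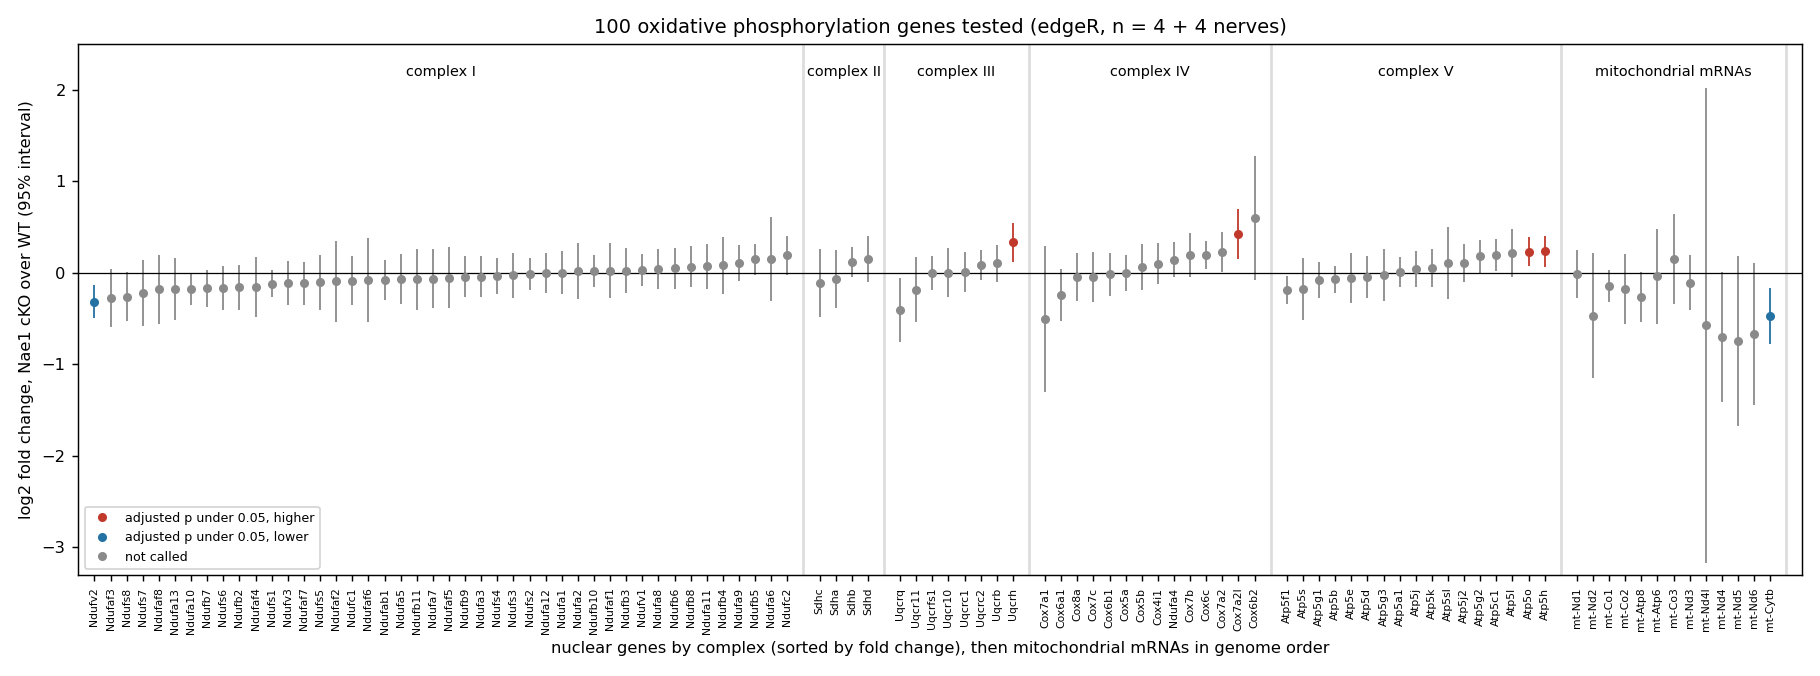
Log2 fold change of Nae1 cKO over WT nerves (y axis, points) with its 95% interval (bars) for the 100 genes tested, with nuclear genes grouped by complex and mitochondrial mRNAs in the order of their genome. Red points are the 4 genes called higher and blue points the 2 called lower; most nuclear genes lie close to 0, and 12 of 13 mitochondrial mRNAs lie below 0 with wide intervals.

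The counts of calls depend on which nerves are kept. Without both nerves with high muscle RNA, K1 and L4, 0 genes were called higher and 1 lower (Ndufv2), with 0 and 1 also when L4 alone was left out. Calls over all genes fell as well, to 7.17% higher and 6.36% lower without K1 and L4. Without L4 alone they were 11.4% and 9.92%. Without K2, 2 were higher and 9 were lower, 8 of them nuclear, while 15.7% of all genes in that fit were higher and 14.4% were lower. Those 9 were Ndufv2, mt-Cytb, Cox6a1, Ndufa13, Ndufs8, Ndufv3, Sdhc, Uqcr11 and Uqcrq, the last with a log2 fold change of −0.58 (SE 0.125, adjusted p = 0.0032). When libraries were scaled to their totals the median of all genes moved to 0.16 and that of the nuclear genes to 0.14. In that fit 18 of the 100 genes were called higher and 0 lower, against 22.7% and 7.34% of all genes. On that scaling the nuclear genes again lay near the middle of all genes.

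Complex I (NADH dehydrogenase), the entry point for electrons from NADH, has 44 nuclear genes here, all of them tested. None was called higher and 1 was lower. Ndufv2 encodes a core iron-sulphur subunit of the module that oxidizes NADH. It stood at 85.3, 91.7, 78.3 and 93.9 CPM in WT nerves K1, L3, L4 and L9, and at 77.2, 65.6, 70.1 and 67.7 CPM in Nae1 cKO nerves K2, L1, L5 and L8. The groups did not overlap, although the highest Nae1 cKO nerve, K2, was close to the lowest WT nerve, L4. The difference was −0.32 on the log2 scale (SE 0.0834, adjusted p = 0.0144), and it was also called within the L nerves alone (−0.38, adjusted p = 0.0060) and in each fit with a nerve left out. It was not called on library totals, FPKM or TPM.

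The median log2 fold change was −0.12 over the 7 core subunits of complex I, −0.03 over 29 accessory subunits and −0.10 over the 8 assembly factors. Of the 44 genes, 29 had a negative and 15 a positive log2 fold change. Ndufs1, another core iron-sulphur subunit, and Ndufa10, an accessory subunit, also had every Nae1 cKO nerve below every WT nerve, with log2 fold changes of −0.12 (adjusted p = 0.23) and −0.18 (adjusted p = 0.13). Ndufb5 and Ndufc2, accessory subunits of the membrane arm, had every Nae1 cKO nerve above, at 0.15 (adjusted p = 0.20) and 0.19 (adjusted p = 0.18). None of the 8 assembly factors was called, and their log2 fold changes ran from −0.27 to 0.02. Ndufb8, the complex I gene with the highest mean TPM, was at 65.7 ± 4.46 TPM in WT and 75.1 ± 12.3 TPM in Nae1 cKO nerves (SD, n = 4).

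Complex II (succinate dehydrogenase) also takes part in the citric acid cycle. None of its 4 genes was called. The catalytic flavoprotein Sdha was at 139, 117, 145 and 160 CPM in WT nerves and 95.2, 137, 148 and 155 CPM in Nae1 cKO nerves, in the same order of nerves as above, and the groups overlapped with K2 lowest. The iron-sulphur subunit Sdhb had every Nae1 cKO nerve (46.0 to 49.3 CPM) above every WT nerve (40.9 to 45.8 CPM), with a log2 fold change of 0.12 (95% interval −0.04 to 0.28, adjusted p = 0.27). For the membrane anchors Sdhc and Sdhd the intervals were −0.49 to 0.26 and −0.11 to 0.40. Nerve K2 was the highest of all 8 for both anchors, at 45.6 CPM for Sdhc and 67.1 CPM for Sdhd. Without K2, Sdhc was called lower (log2 fold change −0.34, adjusted p = 0.0272).

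Complex III (cytochrome bc1) passes electrons from ubiquinol to cytochrome c. Of its 8 nuclear genes, 1 was higher and 0 were lower. Uqcrh encodes the acidic hinge subunit that helps cytochrome c to bind. Its levels were 83.9, 77.9, 70.4 and 75.8 CPM in WT nerves and 117, 89.3, 94.2 and 87.3 CPM in Nae1 cKO nerves. All Nae1 cKO nerves were above all WT nerves, and K2 was the highest. The rise was 0.33 on the log2 scale (SE 0.0996, adjusted p = 0.0275), and within the L nerves it was 0.27 (adjusted p = 0.0217). The call was lost without L3, L4, L5 or L9. Uqcrh also had the highest mean TPM of the nuclear complex III genes, at 127 ± 6.38 TPM in WT and 176 ± 27.4 TPM in Nae1 cKO nerves.

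The 3 core subunits of complex III had log2 fold changes close to 0: Uqcrc1 0.01, Uqcrfs1 (the Rieske iron-sulphur protein) 0.00 and Uqcrc2 0.08. The accessory subunit Uqcrq had the lowest value among nuclear complex III genes, −0.41 (95% interval −0.75 to −0.06, adjusted p = 0.0812).

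Complex IV (cytochrome c oxidase) hands electrons to oxygen, and many of its nuclear subunits come in isoforms made in different tissues. Of 20 nuclear genes 14 were tested, with 1 higher and 0 lower. That gene, Cox7a2l, encodes a relative of the COX7A subunits that joins complexes III and IV into supercomplexes. Its levels were 128, 133, 117 and 133 CPM in WT nerves and 222, 139, 163 and 162 CPM in Nae1 cKO nerves. All Nae1 cKO nerves were higher, K2 by far the most. On the log2 scale it rose by 0.43 (SE 0.124, adjusted p = 0.0243), and without K2 it was 0.27 (adjusted p = 0.0172). The call was lost without K1 or L4.

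In each complex IV pair the widely made isoform had the higher TPM, and 2 tissue isoforms, Cox7a1 and Cox6b2, also passed the filter. Cox4i1 was at 128 ± 7.54 TPM in WT and 150 ± 21.3 TPM in Nae1 cKO nerves, while Cox4i2, an isoform of lung and of low oxygen, was at 0.278 and 0.310 TPM and did not pass the filter. Cox8a was at 140 ± 13.3 and 149 ± 20.3 TPM, whereas the muscle isoform Cox8b was at 1.86 and 1.81 TPM. Cox6a1 was at 97.4 and 90.3 TPM and its muscle partner Cox6a2 at 0.357 and 0.130 TPM.

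Among the COX7A genes, Cox7a2 was at 61.4 ± 3.82 TPM in WT and 78.9 ± 11.3 TPM in Nae1 cKO nerves, and the muscle isoform Cox7a1 at 7.78 and 5.85 TPM. For Cox7a2 every Nae1 cKO nerve was above every WT nerve in CPM, with the closest pair at 49.5 CPM in both K1 and L1 to 3 digits, and the log2 fold change was 0.23 (95% interval 0.01 to 0.45, adjusted p = 0.11, and 0.0477 with the letter of the nerve as a term). Cox7a1 had a log2 fold change of −0.50 (95% interval −1.30 to 0.30), with 3 of the 4 WT nerves above every Nae1 cKO nerve. The testis isoforms Cox7b2 and Cox8c were listed at 0 in all nerves, and Cox6b2 was at 2.14 TPM in WT beside 77.4 TPM for Cox6b1. Ndufa4, named for complex I but a subunit of complex IV, was at 85.3 and 102 TPM, and its low-oxygen relative Ndufa4l2 was at 0.507 and 0.660 TPM. Cox5a and Cox5b, which are both needed in the same complex, had log2 fold changes of −0.00 (95% interval −0.20 to 0.20) and 0.06 (−0.18 to 0.31).

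Complex V makes ATP as protons flow through its membrane ring. Of 17 nuclear genes, 2 were higher and 0 were lower. Both that rose encode parts of the peripheral stalk, which holds the catalytic head still. Atp5o (the OSCP subunit) was at 79.4, 78.1, 71.5 and 78.9 CPM in WT and 95.4, 83.5, 89.4 and 93.5 CPM in Nae1 cKO nerves, and Atp5h (subunit d) was at 69.2, 69.7, 70.8 and 67.5 CPM in WT and 88.2, 73.2, 84.9 and 79.5 CPM in Nae1 cKO nerves. Neither gene had overlapping groups. Both had a log2 fold change of 0.23, with an SE of 0.0733 and an adjusted p of 0.0346 for Atp5o, and 0.0764 and 0.0407 for Atp5h. Both calls were lost within the L nerves alone (adjusted p = 0.0645 and 0.12) and in every fit with a nerve left out except that without L1.

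The other peripheral stalk genes were not called. Atp5f1 (subunit b) had every Nae1 cKO nerve below every WT nerve, with a log2 fold change of −0.19 (adjusted p = 0.0661), and Atp5j (subunit F6) was at 0.04 (95% interval −0.16 to 0.23). In the catalytic head, Atp5b (subunit beta) was the most abundant nuclear gene of all complexes at 300 ± 28.9 TPM in WT and 325 ± 79.9 TPM in Nae1 cKO nerves, and its log2 fold change was −0.07 (95% interval −0.22 to 0.08). The 3 genes for the identical c subunit of the ring, Atp5g1, Atp5g2 and Atp5g3, were at 65.0, 70.5 and 57.1 TPM in WT nerves, with log2 fold changes of −0.08, 0.18 (adjusted p = 0.13) and −0.03.

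**Figure D2:**
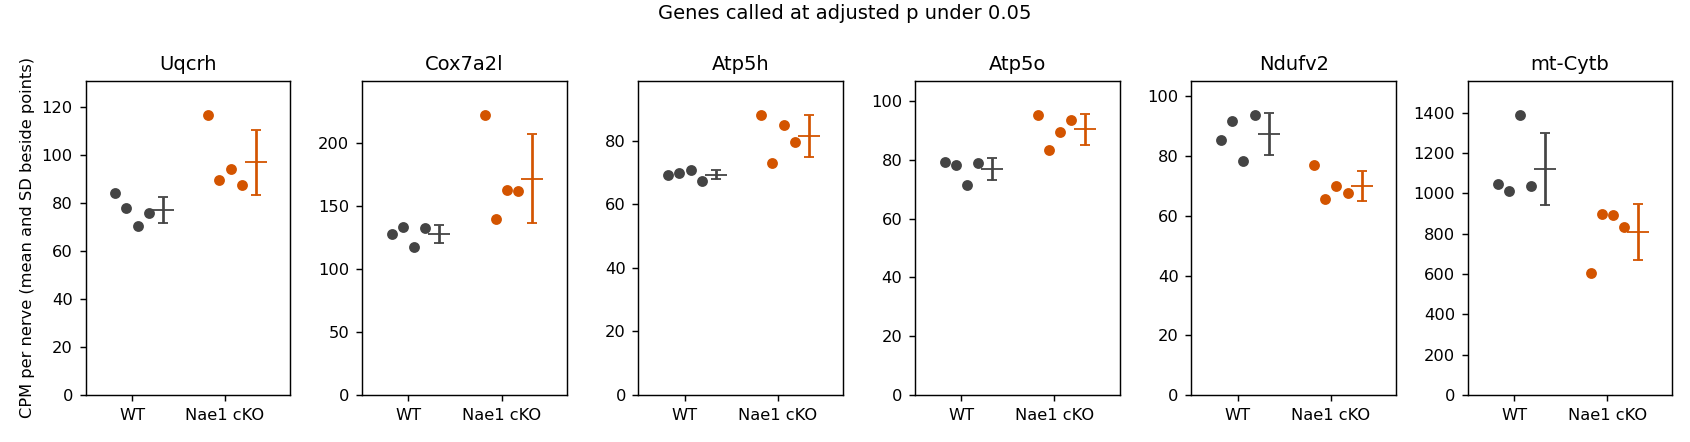
CPM (y axis, from 0) of the 6 genes called at an adjusted p under 0.05 in 4 WT (grey) and 4 Nae1 cKO (orange) nerves, ordered K1, L3, L4, L9 and K2, L1, L5, L8, with mean and SD beside the points. The groups do not overlap in any panel, and K2 is the highest point for all 4 genes called higher, Uqcrh (117), Cox7a2l (222), Atp5h (88.2) and Atp5o (95.4), and the lowest for mt-Cytb (603).

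The promoters of 3 of the 5 called nuclear genes are shown, those of Uqcrh and Atp5h with a short motif and that of Ndufv2 without it. Cox7a2l and Atp5o, which also rose, lack the motif as Ndufv2 does and are not shown. Whether the motif bears on the direction of change was not tested. The stretches shown are the 250 bases before the RefSeq start (GRCm38.p6), written 5′ to 3′ on the minus strand of the genome, where all 3 genes lie. Capitals mark a match to CCGGAAG, the core bound by ETS factors such as GABP, on either strand.
Uqcrh, chr4:116075071-116075320: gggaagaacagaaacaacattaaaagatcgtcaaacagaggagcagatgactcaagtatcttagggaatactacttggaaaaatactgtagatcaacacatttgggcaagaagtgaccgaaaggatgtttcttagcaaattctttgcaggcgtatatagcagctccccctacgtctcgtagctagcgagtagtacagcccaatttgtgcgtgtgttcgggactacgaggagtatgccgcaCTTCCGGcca
Atp5h, chr11:115419920-115420169: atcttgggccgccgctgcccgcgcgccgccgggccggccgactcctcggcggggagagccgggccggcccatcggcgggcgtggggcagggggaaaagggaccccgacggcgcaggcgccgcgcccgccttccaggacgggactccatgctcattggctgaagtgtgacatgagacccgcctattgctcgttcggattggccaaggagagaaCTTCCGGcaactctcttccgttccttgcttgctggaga
Ndufv2, chr17:66101560-66101809: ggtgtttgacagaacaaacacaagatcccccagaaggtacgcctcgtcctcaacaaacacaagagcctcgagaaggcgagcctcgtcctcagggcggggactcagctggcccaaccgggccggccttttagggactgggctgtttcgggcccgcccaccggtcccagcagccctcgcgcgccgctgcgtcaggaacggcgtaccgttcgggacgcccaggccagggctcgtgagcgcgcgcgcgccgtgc
Of the 87 nuclear genes tested, 75 matched a promoter in the RefSeq table, with 81 start sites in all, and 14 of those 81 windows (17.3%) held CCGGAAG in the 250 bases, against 6.91% of all 32851 windows. The NRF1 motif GCGCATGC was in 9 (11.1%) against 2.26%, and the YY1 motif AAGATGGCG was in 2 (2.47%) against 0.606%, both strands searched and no motif holding another. The median GC content was 57.6% in the members' windows and 52.4% in all windows. Neither the NRF1 nor the YY1 motif was found before the 5 called nuclear genes, and CCGGAAG was found only before Uqcrh and Atp5h among them. Genes with the motif that were not called include Sdhd, Cox6b1 and Atp5e, with log2 fold changes of 0.15, −0.02 and −0.06. A match is a run of letters, and no binding was measured.

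The 13 mitochondrial mRNAs encode 7 subunits of complex I, 1 of complex III, 3 of complex IV and 2 of complex V. Of them 0 were higher and 1 was lower in Nae1 cKO nerves, and 12 of 13 log2 fold changes were negative, with a median of −0.26. Without L4, those of mt-Nd1, mt-Atp6, mt-Co3 and mt-Nd4l were positive (0.04 to 0.17) and the rest negative. On library totals, those of mt-Nd1, mt-Co1, mt-Atp6, mt-Co3 and mt-Nd3 were positive (0.01 to 0.31) and the rest negative. The 13 mRNAs come from the same long transcripts and are not independent of each other. mt-Cytb, the only mitochondrial subunit of complex III (chrM:14145-15288), was at 1047, 1012, 1390 and 1036 CPM in WT nerves and 603, 895, 894 and 833 CPM in Nae1 cKO nerves. The groups did not overlap, with L4 far above the other WT nerves and K2 far below the other Nae1 cKO nerves. Nae1 cKO minus WT came to −0.48 on the log2 scale (SE 0.140, adjusted p = 0.0259). It was −0.36 without L4 (adjusted p = 0.0745), a call also lost without L8, −0.37 without K2 (adjusted p = 0.0221) and −0.31 on library totals (adjusted p = 0.17).

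mt-Co1, a catalytic subunit of complex IV, had the highest TPM of the members as listed, at 3351 ± 477 TPM in WT and 3360 ± 781 TPM in Nae1 cKO nerves. The listed TPM of mt-Co3 leaves out reads that were given to a copy in the nuclear genome, described below. The ranking of mt-Co1 and mt-Co3 therefore holds for listed values only. In CPM every Nae1 cKO nerve (5951 to 6615) was below every WT nerve (6698 to 7659), with a log2 fold change of −0.15 (95% interval −0.32 to 0.03, adjusted p = 0.21). The complex I subunit mt-Nd1 differed by −0.01 (95% interval −0.28 to 0.25), and mt-Atp8 of complex V by −0.26 (−0.54 to 0.01).

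The most negative values belonged to complex I subunits encoded in the later part of the mitochondrial genome, and they rested on WT nerve L4. mt-Nd5 was at 301, 354, 842 and 246 CPM in WT nerves and 246, 249, 246 and 296 CPM in Nae1 cKO nerves. mt-Nd4 was at 493, 541, 1104 and 406 CPM in WT and 365, 380, 379 and 437 CPM in Nae1 cKO nerves. L4 was 2.8 and 2.30 times the mean of the other WT nerves for mt-Nd5 and mt-Nd4, 2.37 times for mt-Nd6, which lies on the other strand, and 1.94 times for mt-Nd2, but 0.935 times for mt-Co1. L4 is also the nerve with the most muscle RNA. The log2 fold changes of mt-Nd4, mt-Nd5 and mt-Nd6 were −0.70, −0.75 and −0.67 with all nerves (adjusted p = 0.14, 0.22 and 0.19) and −0.30, −0.21 and −0.24 without L4 (adjusted p = 0.0770, 0.26 and 0.25).

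Reads of several mitochondrial mRNAs cannot be told from those of copies in the nuclear genome. GENCODE vM21 lists 6 pseudogenes side by side on chromosome 1 (chr1:24611535-24615565, minus strand) that copy a stretch of mitochondrial DNA. Gm28437 matches mt-Co3 over 783 bases with 0 differences, Gm10925 matches mt-Atp6 over 678 and Gm28661 matches mt-Co2 over 681, each with 0 differences, and Gm28438 differs from mt-Nd3 at 1 of 345 bases. The opening 60 bases show it for mt-Co3 and its copy, read in the direction of transcription.
mt-Co3, chrM:8607-8666: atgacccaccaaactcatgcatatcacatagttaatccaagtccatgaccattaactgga
Gm28437, chr1:24613912-24613971: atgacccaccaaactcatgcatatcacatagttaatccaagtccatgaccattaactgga
RSEM divided the reads between such genes, and the division varied from nerve to nerve. The copies took 45.2% to 75.4% of the joint counts for mt-Co3, 54.6% to 76.3% for mt-Atp6, 78.6% to 88.4% for mt-Co2 (with a further copy, Gm13341, on chromosome 2) and 24.0% to 100% for mt-Nd4l. mt-Co3 as listed ran from 858 CPM in L8 to 2054 CPM in L1 among Nae1 cKO nerves, but from 3489 to 4120 CPM once summed with its copy. Its log2 fold change went from 0.15 (SE 0.219) to −0.06 (SE 0.0839) by summing, that of mt-Atp6 from −0.04 (SE 0.228) to −0.26 (SE 0.104, adjusted p = 0.0864) and that of mt-Co2 from −0.18 (SE 0.172) to −0.20 (SE 0.0811, adjusted p = 0.0958). mt-Nd3 moved from −0.11 to −0.04, and mt-Nd4l, listed at 0 in K2, from −0.57 (SE 1.07) to −0.49 (SE 0.307). With the sums, all nerves and TMM scaling, all 13 log2 fold changes were negative and mt-Cytb was still the only one called.

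**Figure D3:**
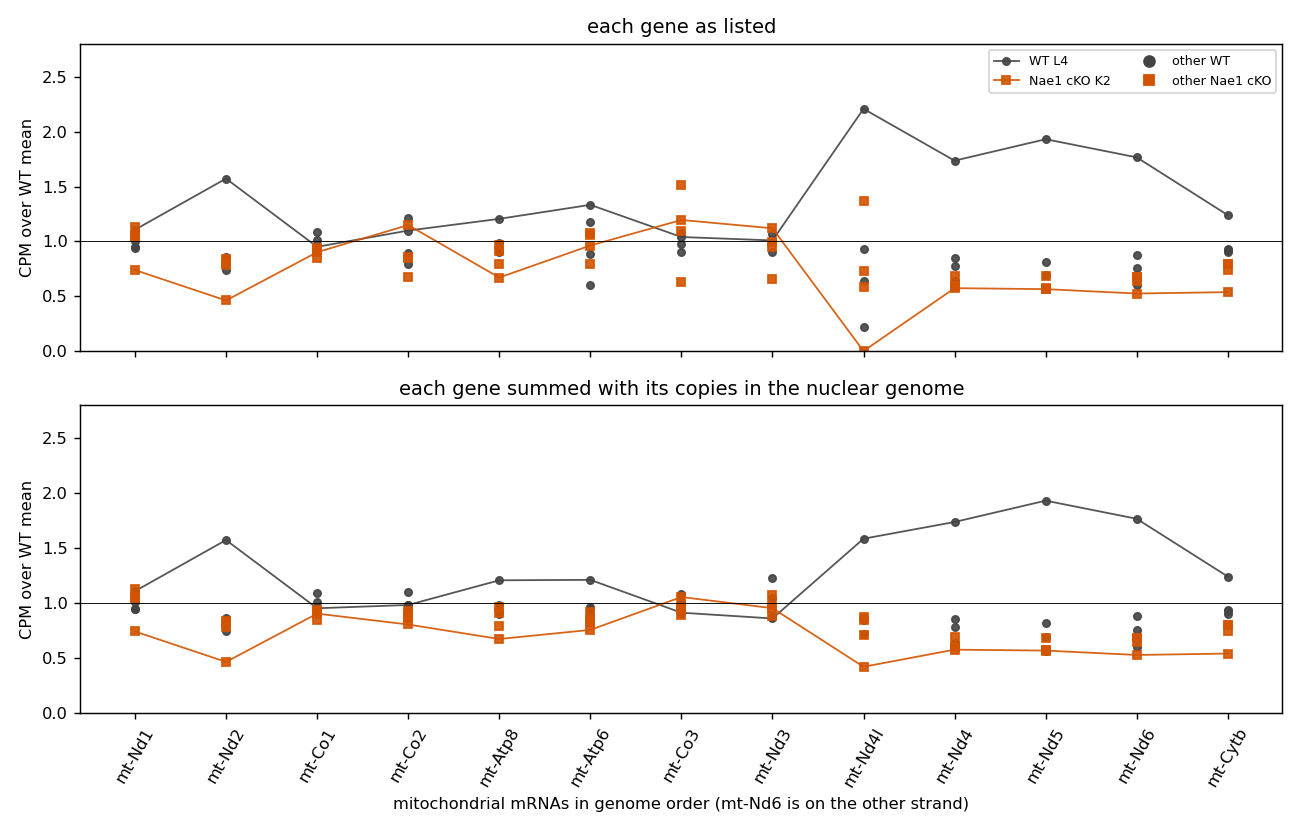
CPM of the 13 mitochondrial mRNAs in each nerve over the WT mean (y axis) in genome order (x axis), as listed (top) and summed with nuclear copies (bottom). Grey circles are WT and orange squares Nae1 cKO nerves; lines join the values of WT nerve L4, the highest nerve from mt-Nd4l to mt-Cytb, and of Nae1 cKO nerve K2, and summing narrows the spread of mt-Co2, mt-Atp6 and mt-Co3.

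Nuclear and mitochondrial genes were then set side by side in each nerve. The mean log2 CPM of the 87 nuclear genes was 5.07, 4.97, 4.93 and 5.04 in WT nerves and 5.13, 4.86, 4.98 and 5.0 in Nae1 cKO nerves, and the groups overlapped throughout. As listed, the mean log2 CPM of the 13 mitochondrial mRNAs was 8.47, 8.42, 9.03 and 8.15 in WT and 7.67, 8.40, 8.34 and 8.19 in Nae1 cKO nerves. Mitochondrial minus nuclear came to 3.39, 3.46, 4.10 and 3.10 in WT and 2.54, 3.54, 3.37 and 3.18 in Nae1 cKO nerves. L4 was the highest and K2 the lowest, and the other 6 nerves overlapped, between 3.10 and 3.54. These differences use the values as listed, with mt-Nd4l at 0 in K2. With each mRNA summed with its copies, the mitochondrial mean was 8.95, 9.03, 9.49 and 8.93 in WT nerves. In Nae1 cKO nerves it was 8.55, 8.85, 8.90 and 8.84, each below every WT nerve. Summed CPM with copies over that of nuclear genes was 3.68, 4.06, 4.55 and 4.13 in WT nerves. In Nae1 cKO nerves it was 3.17, 3.79, 3.72 and 3.63, and the groups overlapped. The median log2 fold change of mitochondrial members minus that of nuclear members was −0.25, and −0.13 without K1 and L4.

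The share of all counts taken by mitochondrial mRNAs was 1.22 ± 0.0929% in WT and 1.21 ± 0.0927% in Nae1 cKO nerves (SD, n = 4), with copies 1.74% and 1.7%. In TPM the 13 mRNAs summed to 11077 ± 1891 in WT and 11080 ± 3307 in Nae1 cKO nerves. After TMM scaling they summed to 12930 ± 927 and 11461 ± 402 CPM, with every Nae1 cKO nerve (11076 to 11875 CPM) below every WT nerve (12143 to 14256 CPM). The lower sum in Nae1 cKO nerves was thus seen after TMM scaling and not in the share of the library.

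The nuclear genes summed to 4482 ± 199 CPM in WT and 4537 ± 314 CPM in Nae1 cKO nerves. By complex, the ratio of the summed CPM in Nae1 cKO to WT nerves was 0.960 for complex I, 1.0 for complex II, 1.05 for complex III, 1.09 for complex IV and 1.01 for complex V. The groups overlapped in CPM for every complex. Complex III summed to 438 CPM in K2, 338 to 359 in the other Nae1 cKO nerves and 337 to 372 in WT. For complex IV these were 1015, 755 to 839 and 710 to 841 CPM. That sum includes Cox7a2l, with means of 128 CPM in WT and 172 CPM in Nae1 cKO nerves. In TPM the ratios were 1.07, 1.18, 1.14, 1.16 and 1.15, on a scale where the median of all genes was also shifted upwards, by 0.10 on log2(TPM + 1). Complex I was the lowest of the 5 on both scales.

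**Figure D4:**
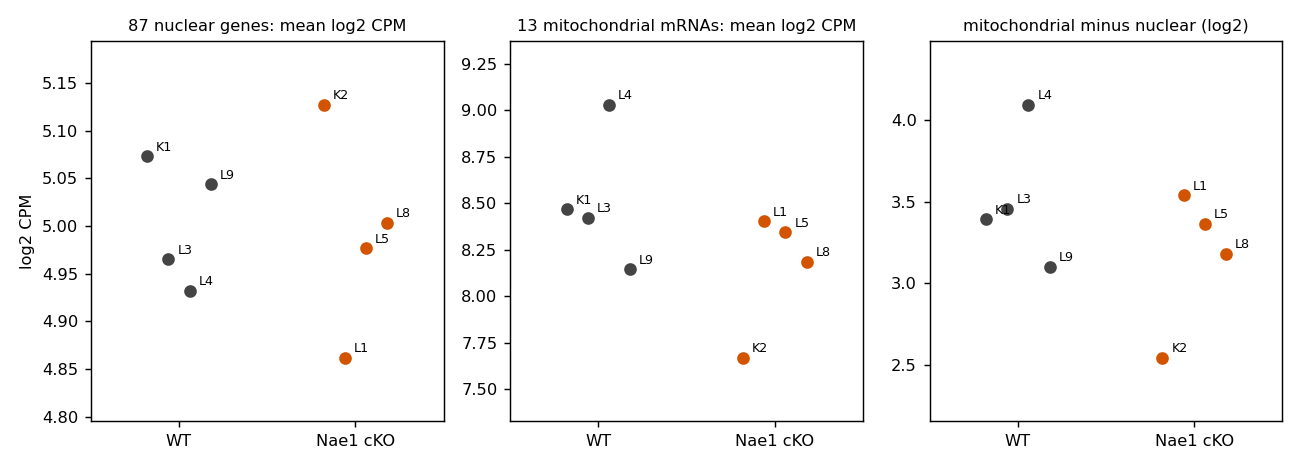
Mean log2 CPM of 87 nuclear genes (left), of 13 mitochondrial mRNAs (middle) and their difference (right) in each nerve, with WT in grey and Nae1 cKO in orange and each point named by its nerve. Mitochondrial values are as listed, without copies. On them the genotypes overlap in all 3 panels, with L4 highest (4.10) and K2 lowest (2.54) in the difference.

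Lists of genes that feed, assemble or maintain the respiratory chain were counted in the same fit. In that fit 14.1% of all genes tested were higher and 12.3% lower, the shares to set beside every list below. Most of their members did not pass the test either, but some passed with larger changes than any nuclear subunit called. Of 10 tested carriers of nucleotides, phosphate and ions, 2 were higher and 1 lower. Slc25a5, which exchanges ATP made by complex V for ADP across the inner membrane (ANT2), was at 127, 129, 112 and 141 CPM in WT nerves and 227, 249, 267 and 271 CPM in Nae1 cKO nerves. The groups were far apart, and the rise was 1.0 on the log2 scale (SE 0.0889, adjusted p = 8.2e-06), called in all 23 alternatives. Slc25a4 (ANT1), its counterpart of heart and muscle, had a log2 fold change of 0.19 (95% interval −0.02 to 0.41). Of the 3 outer membrane channels, Vdac1 rose (0.27, adjusted p = 0.0364) and Vdac2 fell (−0.25, adjusted p = 0.0185). Vdac3 was not called, at 0.19 (adjusted p = 0.0530), with every Nae1 cKO nerve above every WT nerve.

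Of 23 genes of the citric acid cycle and pyruvate entry, 1 was higher and 2 were lower. Mpc1, a subunit of the carrier that brings pyruvate into mitochondria, was at 48.9, 44.9, 43.5 and 53.5 CPM in WT and 36.5, 30.0, 31.5 and 30.5 CPM in Nae1 cKO nerves, with no overlap (log2 fold change −0.57, SE 0.0973, adjusted p = 0.00096). Pdk2, a kinase that holds back pyruvate dehydrogenase, fell by 0.60 on the log2 scale (adjusted p = 0.0419), although its groups overlapped. Suclg2, the GTP-forming subunit of succinyl-CoA ligase, rose by 0.41 (adjusted p = 0.0218).

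Of 20 genes of electron carriers and coenzyme Q, 0 were higher and 2 lower. Coq9, which supports synthesis of ubiquinone, the carrier that feeds complex III, had a log2 fold change of −0.46 (adjusted p = 0.0105), and Gpd2, which passes electrons from glycerol 3-phosphate to ubiquinone, −0.29 (adjusted p = 0.0199). Among 38 tested assembly factors outside the rule, 0 were higher and 3 lower. Ecsit and Timmdc1, which help to assemble complex I, were at −0.50 (adjusted p = 0.0165) and −0.41 (adjusted p = 0.0331), and Taco1, which promotes translation of mt-Co1, was at −0.48 (adjusted p = 0.0249).

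Of 30 tested genes of mitochondrial DNA transcription and RNA handling, 2 were higher and 2 lower. Twnk, the helicase that unwinds mitochondrial DNA, was at 40.5, 45.5, 42 and 38.9 CPM in WT and 25, 31.6, 29.7 and 26.3 CPM in Nae1 cKO nerves, with no overlap (log2 fold change −0.57, SE 0.0975, adjusted p = 0.0010). Pnpt1, a mitochondrial RNA exonuclease, and Slirp, which stabilizes mitochondrial mRNAs, rose by 0.32 (adjusted p = 0.0146) and 0.45 (adjusted p = 0.0245). Of 78 mitochondrial ribosomal proteins 4 were higher and 2 lower, led by Mrpl33 (0.36, adjusted p = 0.0037), Mrpl44 (0.49, adjusted p = 0.0094) and Mrpl36 (−0.40, adjusted p = 0.0176). Of 12 tested regulators of mitochondrial biogenesis 0 were higher and 1 lower, Ppara (−0.67, adjusted p = 0.0457), a call that DESeq2 and limma-voom did not make. The coactivator Ppargc1a was at 0.13 (95% interval −0.10 to 0.36) and Nrf1 at 0.00 (−0.22 to 0.22). The median log2 fold change lay between −0.10 and 0.02 in 6 of the 7 lists and at 0.16 in that of the carriers.

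Some of these calls rested on single nerves. With any 1 nerve left out, Slc25a5, Mpc1, Twnk, Coq9, Ecsit, Pnpt1, Mrpl33, Mrpl44 and Mrpl36 were still called. Of these, Coq9, Ecsit, Pnpt1, Mrpl33 and Mrpl44 were not called without both K1 and L4. Calls over all genes were also fewer in that fit (7.17% higher and 6.36% lower). Suclg2 was lost without K1, L4 or L5, Slirp without K1, L4 or L8, Vdac2 without L1, Gpd2 without L1, L3, L5 or L8 and Taco1 without L3, L5, L8 or L9. Timmdc1 was lost without K1, L1, L4, L8 or L9, Pdk2 without K1, L1, L4, L5 or L9, Ppara without any of those 5 or L8, and Vdac1 without any nerve other than L1 or L4. Within the L nerves alone the calls of Suclg2 (adjusted p = 0.0778), Pdk2 (0.0894), Timmdc1 (0.0628), Slirp (0.0848), Ppara (0.0941) and Vdac1 (0.12) were lost. On library totals and on FPKM, Ecsit, Mrpl36, Gpd2, Taco1, Timmdc1, Pdk2, Ppara and Vdac2 were not called, nor was Coq9 on FPKM, and the value nearest 0 among all alternatives was −0.06 for Gpd2 and −0.10 for Vdac2. On TPM only Slc25a5 of these list genes was called.

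**Figure D5:**
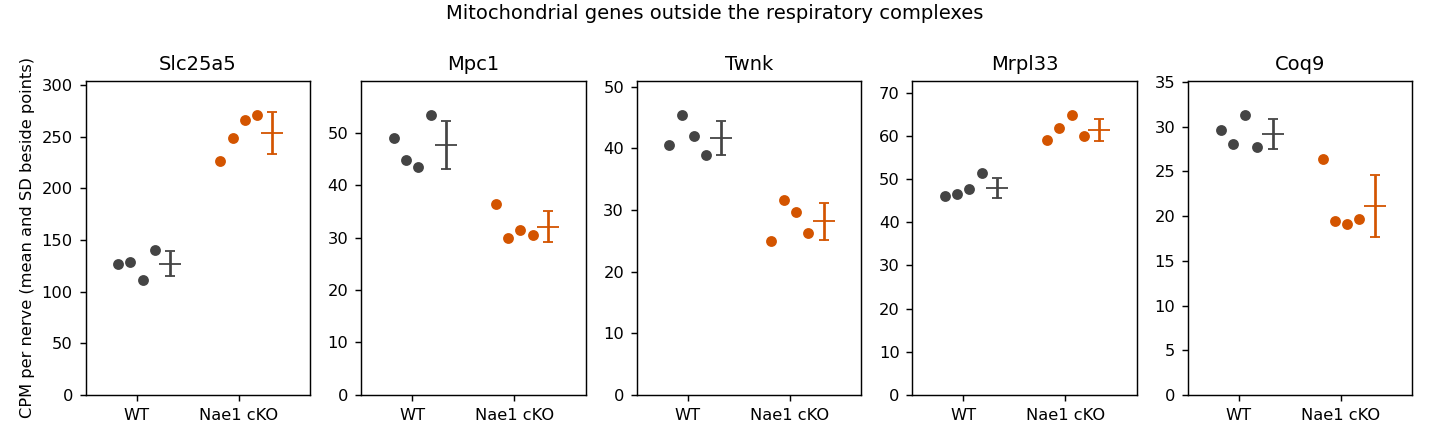
CPM (y axis, from 0) of Slc25a5, Mpc1, Twnk, Mrpl33 and Coq9 in 4 WT (grey) and 4 Nae1 cKO (orange) nerves, ordered K1, L3, L4, L9 and K2, L1, L5, L8, with mean and SD beside the points. The groups do not overlap in any panel, and Slc25a5 goes from 112 to 141 CPM in WT to 227 to 271 CPM in Nae1 cKO nerves.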

How the data were processed

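Stranded libraries of total RNA without ribosomal RNA were made from 8 sciatic nerves (4 WT, 4 Nae1 cKO). The authors deposited RSEM gene tables with expected counts (unscaled), TPM and FPKM (scaled by the authors for depth and gene length). The tools in the submitters' notes are FastQC 0.11.5, STAR and RSEM, on GRCm38. The study's methods name TopHat, mm10 and Cuffdiff, which need aligned reads. How strand was set in counting, and which annotation was used, is not given in the sources used here.

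Expected counts were rounded, filtered by filterByExpr, scaled by TMM and tested with edgeR 4.0.16 (robust quasi-likelihood, no covariates, R 4.3.3) with Benjamini-Hochberg adjustment, after a test on simulated data. Chi-square per gene between same-group libraries was 4.07 to 56.9, above sampling noise. Pairs of K2 with another Nae1 cKO nerve gave 42.3 to 56.9, and Nae1 cKO pairs without K2 gave 4.07 to 9.73. WT pairs gave 12.3 to 25.3. Alternatives used DESeq2 1.42.0, limma 3.58.1, other scalings, filters and units, nerves left out, and sums with near-identical copies (BLAST, 95% identity over 50% of the query); the sums were added after seeing the data. Coordinates are from GENCODE vM21.

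The members and lists were chosen with earlier results of these data known. Genes named are the mitochondrial mRNAs, called members (up to 4 higher and 4 lower per complex), the highest TPM per complex, isoform sets, complex II, and up to 3 called genes per list. Other genes were named after their values were seen.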

Additional observations from a re-analysis of the deposited data

Results flagged for a closer look

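In 19 of 200 groups of 4 nerves (100 genes, 2 genotypes) the highest or lowest nerve stood apart from the other 3 by Dixon's ratio at the 95% level, a limit that chance passes in about 1 of 20 groups. Nae1 cKO nerve K2 was the highest for Atp5a1 (416 CPM), Atp5l (114 CPM), Ndufs3 (22.9 CPM), Ndufs4 (36.9 CPM) and Sdhc (45.6 CPM) and the lowest for Ndufaf4 (9.93 CPM) and mt-Nd2 (94.7 CPM). K2 was also lowest in its group in the share of counts from mitochondrial mRNAs with their copies (1.53%, others 1.75% to 1.78%) and from mitochondrial ribosomal RNA (0.453%, others 1.82% to 1.94%). WT nerve L4 was the highest for mt-Cytb (1390 CPM) and mt-Nd2 (323 CPM) and the lowest for Atp5o (71.5 CPM), Cox6c (68.0 CPM) and Ndufab1 (27.8 CPM).

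Among other WT nerves, K1 was the highest for Atp5g1 (65.9 CPM) and Uqcr10 (36.2 CPM), L3 the lowest for Ndufb4 (13.2 CPM) and L9 the highest for Ndufaf8 (4.77 CPM). Among other Nae1 cKO nerves, L1 was the lowest for Ndufa1 (12 CPM), and L8 the highest for Ndufaf3 (9.27 CPM) and mt-Nd5 (296 CPM).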

How the results depend on the processing

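Of the 100 genes, 4 were called higher (all nuclear) and 2 lower (1 nuclear, 1 mitochondrial). DESeq2 called 2 nuclear genes lower. On library totals 18 were higher (18 nuclear) and 0 lower (0 nuclear, 0 mitochondrial), with a nuclear median of 0.14, and all genes split 3875 higher to 1255 lower. On log2(FPKM + 1) 16 were higher (16 nuclear) and 0 lower (0 nuclear, 0 mitochondrial), with a nuclear median of 0.15 and 3359 and 1035 of all genes. On log2(TPM + 1) and log2(TPM + 0.1) the limma fit called 0 in each direction and genome, with nuclear medians of 0.12 and 0.12, Nae1 at −0.44 and −0.46 and not called, and 1297 and 424, or 1245 and 415, of all genes. Without a filter 2 were higher (2 nuclear) and 2 nuclear genes lower. With the letter of the nerve as a term 6 were higher, with Cox6c and Cox7a2 added, and 5 were lower (3 nuclear, 2 mitochondrial), and within L alone 2 were higher (2 nuclear) and 2 nuclear genes lower. Without 1 nerve at a time, 0 to 4 were higher (0 to 4 nuclear) and 1 to 9 lower (1 to 8 nuclear, 0 to 1 mitochondrial). In those fits 11.2% to 15.7% of all genes were higher and 9.47% to 14.4% lower. Without K1 and L4, 0 were higher (0 nuclear) and 1 lower (0 mitochondrial), with 1273 and 1129 of all genes. Without K2 and L9, 1 was higher (1 nuclear) and 4 lower (3 nuclear), against 15.4% and 14.5% of all genes. Leaving out genes with near-identical copies left 2 higher (2 nuclear). The cause of these shifts was not tested. No called gene changed sign under any alternative. No paired analysis was made because the genotypes share no full replicate name and nothing in the labels pairs the nerves. The median SE of a nuclear member was 0.109 on the log2 scale, which limits the size of change that 4 nerves per genotype can show.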
